A study of Homo sapiens with 18 samples.

Results

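In poly(A)-selected mRNA-seq of IMR90 fibroblasts, the balance between reads in the 3′ untranslated region (3′ UTR) and reads in the coding sequence (CDS) was described for 2387 genes of the 38716 gene symbols in the tables. They were chosen by their mean read counts over the 9 mRNA-seq libraries, at least 200 in the 3′ UTR column and at least 200 in the CDS column, and not by any comparison of conditions. For each gene and library, the measure was the log2 ratio of 3′ UTR reads to CDS reads, with 0.5 read added to both. Just inside the threshold lay IMP3 and RPUSD1, each at a mean of 200.1 reads in the scarcer column, and just outside it ASB1 and STK39, each at 199.9. In at least 1 library, 23 members had fewer than 50 reads in a column. A total of 321 members met the threshold only with the libraries of a certain group included, so a difference of that column between groups is part of why they are members.

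IMR90 is an isolate of human fetal lung fibroblasts, so all groups come from 1 cell strain. The young group was proliferating at low passage. The old group had reached replicative senescence at high passage. The ICM group consisted of low-passage cells given inflachromene, a compound whose targets are HMGB1 and HMGB2, non-histone proteins that bend DNA. The treatment lasted 6 days before Ribo-seq, and the labels give no dose for these libraries. Each condition had 3 mRNA-seq and 3 ribosome profiling (Ribo-seq) libraries, 18 in all, made from lysates treated with cycloheximide. Per the study's methods, the replicates were grown independently.

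Most mRNAs end where the nascent transcript is cut and given a poly(A) tail, downstream of a hexamer such as AATAAA. A gene with several such sites can make mRNAs with the same protein and 3′ UTRs of different length, which is known as alternative polyadenylation, and proliferating cells are known for using the sites nearer the stop codon more often than resting ones. Binding sites for microRNAs and for RNA-binding proteins lie in the 3′ UTR, so its length can bear on how long an mRNA lasts and how much it is translated. A read count over a 3′ UTR does not itself locate the end of the mRNA.

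Annotated 3′ ends of members that the results turn on are shown here. Short and long forms can be told apart for RPL27A, RPL10 and TAF10. A single end is given for each of the others, some of which have further annotated ends. Each line gives 30 bases at or near the end of a 3′ UTR, written 5′ to 3′ on the gene's strand as DNA, with the hexamer AATAAA or ATTAAA in capitals where it lies in the last 50 bases. The number of bases is the length of the 3′ UTR that stops there. Sequences and positions are from GRCh37 with GENCODE v44lift37.
RPL27A, 41 bases, chr11:8707365-8707394, plus strand: gggagtttcATTAAAtgctaactacttttt
RPL27A, 4066 bases, chr11:8711390-8711419, plus strand: aaaagatgtttttaacaaaaatgtaactga
RPL37, 7242 bases, chr5:40825364-40825393, minus strand: tttctttAATAAAgatattgtacaatgaaa
RPL10, 55 bases, chrX:153629221-153629250, plus strand: ttaatactcaccAATAAAttctacttcctg
RPL10, 1477 bases, chrX:153630644-153630673, plus strand: ccaatccacAATAAAcatggcccattggca
TAF10, 77 bases, chr11:6632076-6632105, minus strand: cctgttttcatAATAAActttattgtgaca
TAF10, 4629 bases, chr11:6627524-6627553, minus strand: ttttaaaaAATAAAgaatttgattttgcca
SH3GLB1, 4949 bases, chr1:87213838-87213867, plus strand: actttcattAATAAAgtgctttaaagaaca
EIF2S1, 3076 bases, chr14:67853204-67853233, plus strand: tgaaagtAATAAAaatgttctttaaaagta
RUNX1, 4334 bases, chr21:36160103-36160132, minus strand: ggcaAATAAAcagtttgacaagtacataca
REEP5, 2401 bases, chr5:112212082-112212111, minus strand: agatgtaAATAAAattgagttctcatttaa

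RPL10 and TAF10 have the hexamer at both a near and a far end. RPL27A has it at the near end and neither form of it in the last 50 bases of the far one. Over all members with an annotated 3′ UTR, AATAAA stood in the last 50 bases of the transcript in 70.4% of 2383 and in 67.8% of all tested genes.

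The mRNA-seq libraries held 7902427 to 14144455 reads in 5′ UTR, CDS and 3′ UTR columns together. The fibroblast markers COL1A1, COL1A2, COL3A1, VIM, FN1, PDGFRB, THY1 and LUM summed to 31212 to 35416 CPM (here, reads scaled to the library total) in young, 27869 to 32734 in old and 12757 to 12904 in ICM libraries. The 3 endothelial, 3 epithelial and 3 immune markers each summed to 4.64 CPM or less in every library, with CDH5 and CD3E at 0 throughout. The part of the lower fibroblast sum of ICM libraries in any ratio was not tested. Across members, log2 ratios of library pairs correlated with Pearson's r of 0.970 to 0.992 within groups and 0.963 to 0.985 between groups.

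The median member had a mean log2 ratio of -0.42, or 0.748 reads in the 3′ UTR for each in the CDS. The middle 90% of members lay between -2.87 and 1.37, and 34.9% had more reads in the 3′ UTR than in the CDS. FTL, the ferritin light chain, was lowest at -7.17, and GNG12, a G protein gamma subunit, was highest at 3.42. The ratio followed the annotated lengths of both regions, with a Spearman correlation of 0.645 with the length ratio across 2383 genes, which share libraries and are not independent. Per annotated base the median log2 ratio was -0.94, and 93.1% of members had fewer reads per base in the 3′ UTR than in the CDS. Within a group, the SD of a gene's log2 ratio over 3 libraries had a median of 0.14.

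Summed over members, the share of reads in the 3′ UTR was 34.5%, 34.0% and 34.8% in young replicates 1 to 3. In old libraries it was 35.6%, 38.2% and 35.7%, and in ICM libraries 34.5%, 33.2% and 33.7%. The old libraries lay above all others and old replicate 2 stood highest. Old exceeded young by 2.07 percentage points and ICM was below old by 2.70 points, without overlap, and each exact permutation test (two-sided, 3 against 3) gave p = 0.1, the smallest this design allows (adjusted p = 0.257 over 18 tests). ICM and young overlapped (exact permutation p = 0.3).

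The ratio of the median gene gave a different picture from the pooled share. Its log2 value was -0.46, -0.45 and -0.38 in young, -0.46, -0.28 and -0.45 in old, and -0.40, -0.49 and -0.48 in ICM. All 3 groups overlapped, with exact permutation p-values of 0.6 for old against young, 0.5 for ICM against young and 0.5 for ICM against old. Old replicate 2 was again the highest, and without it the median change of members from young to old was -0.03 on the log2 scale in place of 0.03.

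**Figure D1:**
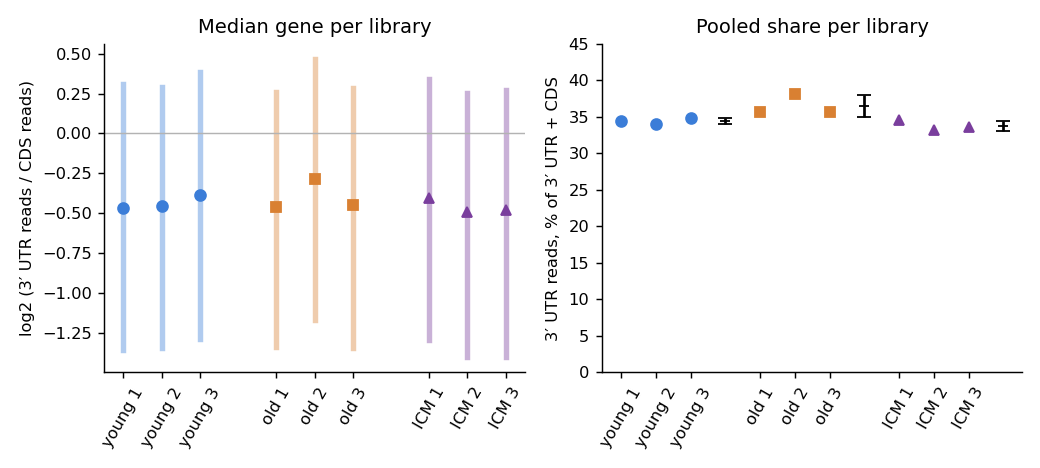
The left panel plots the log2 ratio of 3′ UTR to CDS reads per mRNA-seq library, with the median of 2387 genes as a point and the interquartile range of genes as a bar; the right panel plots the percent of member reads that lie in the 3′ UTR, with the mean ± SD of each group (n = 3) in black. Group medians overlap in the left panel, and old replicate 2 is the highest library in both.

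Ribosomes leave the mRNA at the stop codon, and footprints were scarce in the 3′ UTR. The 3′ UTR share of member footprints was 0.988% and 0.606% in young replicates 2 and 3, 1.92% and 2.58% in old replicates 1 and 3, and 0.762%, 0.905% and 1.5% in ICM. Young replicate 1 and old replicate 2 stood apart at 6.75% and 18.8%, with 29853 and 33265 CDS footprints over members. ICM replicates 1 to 3 held 133028, 46773 and 26799 CDS footprints. In each group, the library with the fewest CDS footprints had the highest share. The part of depth in these shares was not tested. No comparison passed (exact permutation p of 0.8 for ICM against young, 0.5 for old against young and 0.1 for ICM against old).

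Single genes were tested with edgeR's quasi-likelihood test for a change of the 3′ UTR to CDS ratio, over 9402 genes with a mean of at least 10 reads in both columns. A gene was called at a Benjamini-Hochberg adjusted p under 0.05. In ICM against young, 107 of 2387 members were called, 72 with a higher and 35 with a lower ratio. That is 4.48% of members beside 4.57% of all genes tested, of which 3.28% were called higher and 1.3% lower. A log2 change of at least 0.5 accompanied 89 of the calls, beside 4.35% of all genes tested. The ratio of 95.8% of members stayed within 0.5 of 0 on the log2 scale, and the median change was -0.04. Leaving out young replicate 2 gave 69 called members and leaving out ICM replicate 1 gave 70.

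In old against young, 52 members were called, 45 higher and 7 lower. They were 2.18% of members beside 1.88% of all genes tested (1.46% higher and 0.425% lower), and the median change was 0.03. With a log2 change of at least 0.5 the count was 48, beside 1.84%. Without young replicate 2 the count was 30. In ICM against old, 55 members were called, 24 higher and 31 lower, or 2.30% beside 1.81% of all genes tested (0.968% higher and 0.84% lower), and 52 had a log2 change of at least 0.5, beside 1.78%. That count fell to 28 without ICM replicate 3, to 35 without ICM replicate 2, to 36 without ICM replicate 1 and to 36 without old replicate 2. With scaling factors set for each column, 36 of the calls in ICM against old were higher and 31 lower. Comparisons with young share the young libraries, and those with ICM the ICM libraries. Without the 321 members that needed a certain group to meet the read threshold, 88 members were called in ICM against young, 38 in old against young and 38 in ICM against old, of 2066. Among genes described here, this group holds RPL10, PLTP, AGBL5, NCAPH2, RBM15B, IGFBP7, H2AFV, OSGIN2, HMGA2 and AKR1C1, and their changes are given as a description. Since these are whole-culture samples, fewer cells with an mRNA and less of it per cell cannot be told apart.

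The 3′ UTR and CDS columns were also tested alone, relative to all mRNA reads. Of the 72 members with a higher ratio in ICM, 47 rose and 5 fell in 3′ UTR reads, while 17 rose and 42 fell in CDS reads, with medians of 0.53 and -0.33 on the log2 scale. In 17 of them the columns passed in opposite directions. Of the 35 with a lower ratio in ICM, 24 fell and 5 rose in the 3′ UTR, and 18 rose and 10 fell in the CDS. Among the 45 with a higher ratio in old, 29 rose and 2 fell in the 3′ UTR, with 10 rising and 28 falling in the CDS. Of the 7 lower in old, 6 rose in CDS reads. Over all genes tested, 53.1% changed in 3′ UTR reads and 66.8% in CDS reads in ICM against young, and 44.9% and 62.1% in old against young. In ICM against old, where these were 44.1% and 59.1%, 19 of the 24 members with a higher ratio fell in CDS reads and 11 rose in the 3′ UTR, and 26 of the 31 with a lower ratio fell in the 3′ UTR.

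**Figure D2:**
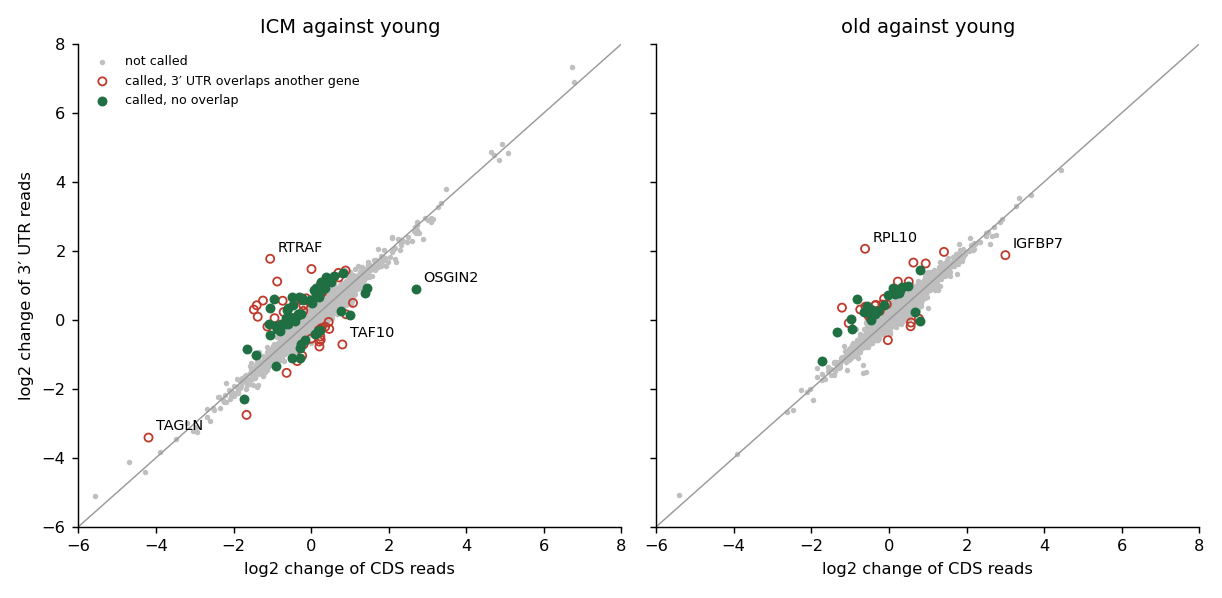
Each point is a member, with the log2 change of its CDS reads on the x axis and of its 3′ UTR reads on the y axis, for ICM against young (left) and old against young (right); the line marks equal change. Most members lie on the line, and called members lie to either side of it, with open red circles where the 3′ UTR overlaps another gene and filled green points where it does not.

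Ribo-seq counts were not used to choose members and offer a separate view of the coding part. Footprints on the CDS could be tested for 52 of the 72 members with a higher ratio in ICM. Of these, 5 rose and 12 fell, beside 26.6% of all genes tested that changed either way. The median footprint change was -0.37, beside -0.47 for CDS reads and 0.39 for 3′ UTR reads of the same genes, and footprints moved nearer to CDS than to 3′ UTR reads in 39 of 52. The same held for 26 of the 30 testable members higher in old, of which 3 rose and 6 fell (36.3% of all genes tested changed in old against young). Of the 23 testable members lower in ICM, 3 rose and 3 fell in footprints, and 15 were nearer to CDS reads. Their median footprint change was -0.03, beside 0.18 for CDS reads and -0.40 for 3′ UTR reads. Of the 4 testable members lower in old, 3 were nearer to CDS reads. In members not called for ICM, where the columns lie close together, footprints were nearer to CDS reads in 1057 of 1890. The difference between these shares was not tested.

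Overlap with another gene marked many called members. The tables do not state whether counting used strand, so where a 3′ UTR lies over exons of a gene on the other strand, reads from a gene and its antisense partner cannot be told apart. The 3′ UTR of the representative transcript overlapped an exon of another gene in 567 members, and 46 of these (8.11%) were called in ICM against young, beside 61 of 1816 members without overlap (3.36%). In old against young the shares were 4.59% and 1.43%, and in ICM against old 5.11% and 1.43%. The difference between these shares was not tested. Among the members named by size of change, 7 of the 8 highest and 6 of the 8 lowest in ICM against young had such an overlap. Within a gene, an annotated 3′ UTR can also overlap the CDS of another transcript. This was so in 18 of the 72 members higher in ICM and 14 of the 35 lower. The shares were 25% and 40%, beside 26.3% of members not called. RPL37, RPS23, RPL28, PDXK, H2AFV, MOV10 and REEP5 are such genes. The part of this overlap in the ratios was not tested.

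For 230 members, a partner on the opposite strand had reads in the tables. The partner's mRNA reads were summed over its 5′ UTR, CDS and 3′ UTR columns, shared bases included. If counting did not use strand, the same reads could enter both values, so a shared direction is not independent evidence. In ICM against young, 27 of these members were called. The partner's summed mRNA reads passed in 26, in the direction of the ratio for 23. Among 203 uncalled members the partner passed in 135, in the direction of the ratio for 70. Of all genes, 71.5% passed. In old against young, 16 were called and 13 partners passed, all 13 in the direction of the ratio. Among 214 uncalled members 134 partners passed, 88 in that direction, and 66.6% of all genes passed. In ICM against old, 22 were called and 17 partners passed, 14 in the direction of the ratio. Among 208 uncalled members 135 partners passed, 80 in that direction, and 63.6% of all genes passed. The partners' part in these ratios was not tested.

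**Figure D3:**
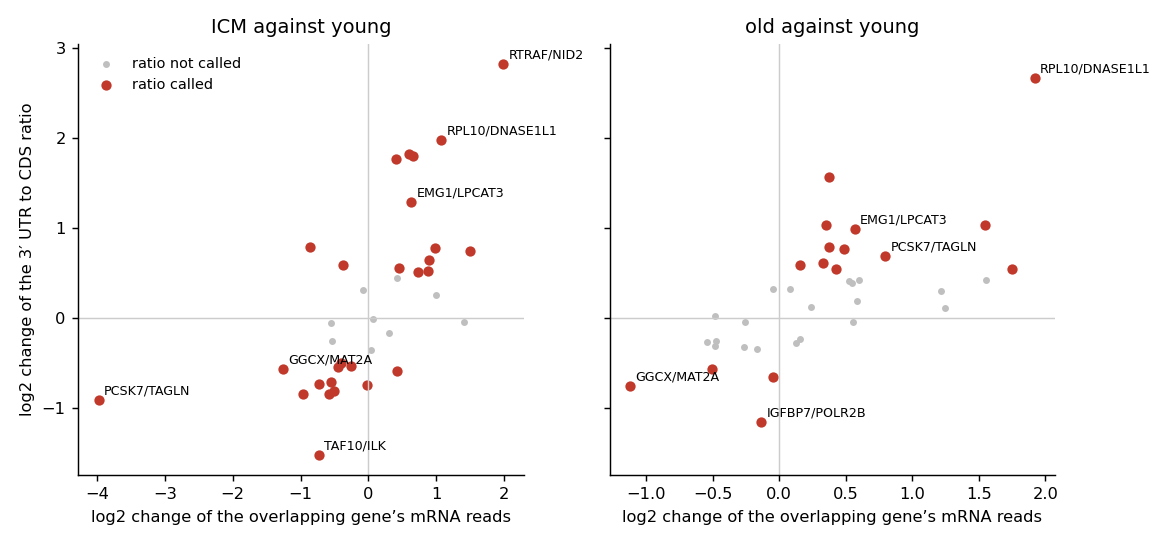
Each point pairs a member with the gene on the opposite strand that overlaps its 3′ UTR, with the log2 change of the partner's mRNA reads on the x axis and of the member's 3′ UTR to CDS ratio on the y axis, for ICM against young (left) and old against young (right). Shown are the pairs whose member was called in at least 1 comparison; in ICM against young, 23 of the 26 called members whose partner passed lie in the upper right or lower left.

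RTRAF, a subunit of the tRNA ligase complex, had the largest rise in ICM. Its log2 ratio was -0.77, -0.65 and -0.37 in young, -1.14, -1.0 and -0.56 in old, and 2.20, 2.10 and 2.40 in ICM. The ICM libraries lay far above the others. The ratio rose by 2.83 ± 0.143 (SE, edgeR, adjusted p = 1.91e-11) and the 3′ UTR share from 39.9% ± 3.45 to 82.4% ± 1.54 (SD, n = 3). Reads rose by 1.77 in the 3′ UTR and fell by 1.06 in the CDS, where footprints fell by 1.25 (adjusted p = 0.00657). Its 3′ UTR shares 924 bases with NID2, a basement membrane protein gene on the other strand, whose mRNA was at 408, 292.8 and 1621 CPM in young, old and ICM, a rise of 1.99 in ICM.

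RPL10, a protein of the large ribosomal subunit, had a log2 ratio of -6.61, -6.55 and -6.22 in young, -3.92, -3.81 and -3.67 in old, and -4.70, -4.40 and -4.35 in ICM. No groups overlapped. The 3′ UTR share rose from 1.12% ± 0.17 in young to 6.72% ± 0.537 in old and 4.29% ± 0.518 in ICM, and the ratio rose by 2.67 ± 0.139 in old and by 1.98 ± 0.142 in ICM. It met the read threshold in the 3′ UTR through old, with a mean of 199.0 reads in the other groups. Its long form overlaps 716 bases of DNASE1L1, a DNase of the other strand, whose mRNA rose by 1.92 in old and 1.07 in ICM. RPL10 also has near-identical pseudogene copies, so its counts are uncertain.

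PLTP, a phospholipid transfer protein of lipoproteins, went from -0.83, -1.10 and -1.11 in young to 0.56, 0.49 and 0.62 in old and 0.87, 0.83 and 0.72 in ICM. CDS reads fell by 1.40 in ICM and by 1.21 in old, while 3′ UTR reads rose by 0.42 and 0.35. The ratio was higher by 1.83 ± 0.142 in ICM and 1.57 ± 0.143 in old. PLTP met the read threshold in the CDS through young, where it had a mean of 333 reads, beside 156.0 over the other groups. All 319 bases of its 3′ UTR lie over CTSA, a lysosomal carboxypeptidase whose mRNA rose by 0.59 and 0.37.

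AGBL5, a carboxypeptidase of tubulin, was at 0.53, 0.54 and 0.62 in young, 1.23, 1.21 and 1.09 in old, and 2.32, 2.35 and 2.41 in ICM, with no overlap between groups. The ratio rose by 1.80 ± 0.13 in ICM and 0.62 ± 0.124 in old, a call lost without young replicate 2. Its CDS met the threshold through young and old, each at a mean of 240.3 reads, beside 121.7 in ICM. CDS reads of AGBL5 fell by 1.24 in ICM and changed by -0.17 in old, while its 3′ UTR reads rose by 0.56 and 0.45. OST4, an oligosaccharyltransferase subunit over 147 bases of its 3′ UTR, rose by 0.66 and 0.33. NCAPH2, a condensin II subunit, rose by 1.76 in ICM and 1.03 in old and overlaps SCO2. Its 3′ UTR reads changed by 0.30 in each comparison, and its CDS held a mean of 359.7, 243 and 156 reads in young, old and ICM. EMG1, which acts in ribosome assembly, rose by 1.29 and 0.99 and overlaps LPCAT3, whose mRNA rose by 0.63 and 0.57. CDS reads of EMG1 fell by 0.73 and 0.61, and its 3′ UTR reads rose by 0.56 and 0.38. In SERF2 the ratio rose by 1.04 ± 0.123 in old (adjusted p = 2.13e-05) and changed by 0.26 in ICM (adjusted p = 0.347), beside a rise of SERINC4 by 1.55 in old and 0.99 in ICM.

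TAF10, a subunit of the transcription factor TFIID, moved the other way in ICM. Its log2 ratio was 1.31, 1.20 and 1.35 in young, 1.51, 1.80 and 1.54 in old, and -0.21, -0.13 and -0.36 in ICM, where all libraries lay below the rest. The ratio fell by 1.52 (SE 0.116, adjusted p = 1.75e-08), with 3′ UTR reads down by 0.71 and CDS reads up by 0.81. Its long form shares 541 bases with ILK, integrin-linked kinase, whose mRNA fell by 0.73. PCSK7, a proprotein convertase, was at -0.56, -0.81 and -0.88 in young, -0.10, -0.12 and 0.02 in old, and -1.63, -1.68 and -1.66 in ICM. It rose by 0.69 in old (adjusted p = 0.000904) and fell by 0.90 in ICM (adjusted p = 5.67e-05). The whole 1660 bases of its 3′ UTR lie over TAGLN, the smooth muscle protein transgelin, with 2155, 3735 and 136.8 CPM in young, old and ICM.

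Other large falls in ICM were in MYLK, myosin light chain kinase, and RBM15B, an RNA-binding protein of the m6A writer complex. Their ratios fell by 1.09 and 0.84. MYLK read -1.02 in each young library, -1.05, -0.52 and -0.80 in old and -1.88, -2.27 and -2.20 in ICM, and lies over its antisense transcript MYLK-AS1. RBM15B lies over DCAF1, whose mRNA fell by 0.59. The 3′ UTR of VMP1, an autophagy protein, holds MIR21 on the same strand, and its ratio fell by 0.99 in ICM (adjusted p = 9.39e-06) and by 0.74 in old (adjusted p = 0.000628). GGCX, the vitamin K-dependent carboxylase, fell by 0.56 in ICM (adjusted p = 0.00689, or 0.0804 without young replicate 2) and 0.75 in old (adjusted p = 0.000874). Its CDS reads rose by 0.36 and 0.56, while its 3′ UTR reads changed by -0.20 and -0.18 and did not pass. MAT2A on the other strand fell by 1.26 and 1.12.

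IGFBP7, a secreted binding protein of insulin-like growth factors, had a lower ratio in old. It was at -4.81, -5.34 and -4.68 in young, -6.36, -5.75 and -6.20 in old, and -4.52, -4.77 and -4.61 in ICM. Both columns rose in old, the CDS by 3.00 and the 3′ UTR by 1.88, and footprints rose by 2.72, so that the ratio fell by 1.15 (SE 0.171). Of its 544 bases of 3′ UTR, 260 lie over POLR2B, an RNA polymerase II subunit whose mRNA changed by -0.14 (adjusted p = 0.069). The 3′ UTR held 107 to 147 reads in young libraries and 339 to 789 in old ones, and the gene met the threshold through old, with a mean of 116.8 reads in the other groups.

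**Figure D4:**
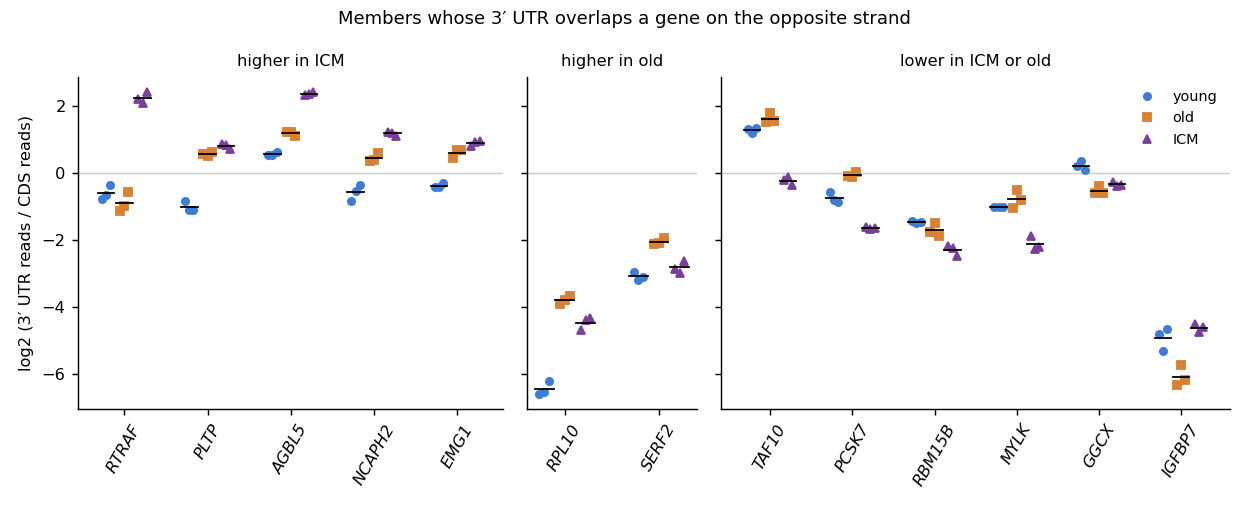
The log2 ratio of 3′ UTR to CDS reads is plotted per mRNA-seq library for 13 members whose 3′ UTR overlaps a gene on the opposite strand, with 3 points and a mean line per group. RTRAF and AGBL5 are highest in ICM, RPL10 and SERF2 are highest in old, and TAF10, PCSK7 and MYLK are lowest in ICM.

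Among members without an overlapping gene, ribosomal protein genes had several of the largest rises. Of 77 ribosomal protein genes, 29 were tested and 10 were members, including RPL10, whose 3′ UTR overlaps DNASE1L1. The ratio rose in 7 of the 10 in ICM and 5 in old and fell in none. Of all genes tested, 3.28% and 1.46% were called higher. Median changes of the 10 were 0.67 and 0.32, beside -0.04 and 0.03 over all members. CDS reads fell in all 10 in both comparisons, by a median of 0.85 in ICM and 0.51 in old. Most of these genes have processed pseudogenes, so where their reads were placed is uncertain.

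RPL37 read -3.19, -3.14 and -2.94 in young, -2.49, -2.48 and -1.81 in old, and -1.66, -1.59 and -1.33 in ICM, in that order without overlap. The share of its reads in the 3′ UTR was 10.5% ± 0.86, 17.5% ± 4.11 and 25.8% ± 2.32. The ratio rose by 1.56 ± 0.153 in ICM (adjusted p = 3.74e-07) and 0.83 ± 0.154 in old (adjusted p = 0.00307), and in ICM 3′ UTR reads rose by 0.61 while CDS reads fell by 0.95. Annotated 3′ UTRs of RPL37 run from 277 to 7242 bases.

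RPL27A read -4.84, -4.78 and -4.64 in young, -3.92, -3.87 and -3.57 in old, and -3.39, -3.41 and -3.21 in ICM. Again no groups overlapped, and the share rose from 3.57% ± 0.239 to 6.79% ± 0.842 and 9.02% ± 0.635. The ratio rose by 1.42 ± 0.123 in ICM (adjusted p = 6.87e-08) and 0.97 ± 0.123 in old (adjusted p = 4.76e-05). Reads of the 3′ UTR rose by 0.35 and 0.39, CDS reads fell by 1.07 and 0.58, and footprints fell by 0.69 (adjusted p = 0.0265) and 0.60 (adjusted p = 0.0195). These 3′ UTR reads numbered 244 to 537 per library.

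RPS23, of the small subunit, read -3.70, -3.57 and -3.36 in young, -2.59, -2.74 and -2.30 in old, and -2.61, -2.78 and -2.31 in ICM. Old and ICM overlapped and both lay above young. Only the CDS column passed the test, with falls of 1.10 in ICM and 0.97 in old, while 3′ UTR reads changed by -0.12 (adjusted p = 0.278) and 0.02 (adjusted p = 0.895). The ratio rose by 0.97 ± 0.14 (adjusted p = 7.01e-05) and 0.99 ± 0.14 (adjusted p = 0.000161). RPL28, RPL22 and RPL15 rose by 0.69, 0.66 and 0.47 in ICM, and RPL15 by 0.45 in old (adjusted p = 0.0275). RPL13, RPL13A and RPL41 changed by 0.04, 0.20 and 0.00 in ICM and did not pass.

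Several other members without an overlapping gene rose, and were chosen after their values were seen. PDXK, which makes the active form of vitamin B6, read -0.23, -0.18 and -0.23 in young, 0.08, 0.07 and 0.36 in old, and 0.83, 1.02 and 0.99 in ICM. Its ratio rose by 1.16 ± 0.119 in ICM (adjusted p = 7.24e-07) and changed by 0.39 in old (adjusted p = 0.141). SH3GLB1, a membrane-curving protein of mitochondria and autophagy, was at -1.14, -1.10 and -0.83 in young, -0.84, -0.90 and -0.76 in old and -0.06, -0.09 and 0.03 in ICM. Only ICM stood apart, with a rise of 0.98 ± 0.118 (adjusted p = 8e-06) from 3′ UTR reads up by 0.67 and CDS reads down by 0.31.

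RSL1D1, a nucleolar protein, RUVBL1, an ATPase of chromatin remodelling complexes, and HSPA4, a heat shock protein of the HSP110 group, rose in both comparisons. The rises in ICM were 0.95, 0.92 and 0.89, and in old 0.79, 0.86 and 0.54. CDS reads of the trio fell in both comparisons, by 0.37 to 0.64. H2AFV, which encodes a variant of histone H2A, read 0.41, 0.46 and 0.65 in young, 1.25, 1.56 and 1.66 in old, and 1.21, 1.45 and 1.31 in ICM. Both of its columns fell, the CDS by 1.66 in ICM and 1.33 in old and the 3′ UTR by 0.85 and 0.34. Its CDS met the threshold through young, with a mean of 176.2 reads in the other groups.

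MOV10, an RNA helicase, rose in old alone of the comparisons with young. It was at 2.52, 2.43 and 2.08 in young, 3.84, 3.85 and 3.57 in old, and 2.67, 2.66 and 2.54 in ICM, and the ratio rose by 1.41 ± 0.13 in old (adjusted p = 4.47e-07) and changed by 0.29 in ICM (adjusted p = 0.302). From old to ICM the ratio fell by 1.13 (adjusted p = 7.34e-06). Reads of the 3′ UTR numbered 2273 to 5561 per library against 267 to 593 in the CDS, although its annotated 3′ UTRs span at most 239 bases and the CDS 3009. What else could lie under that column was not tested.

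Lower ratios without an overlapping gene included OSGIN2, named for oxidative stress-induced growth inhibition. It read 0.46, 0.47 and 0.96 in young, -0.38, -0.12 and -0.13 in old, and -1.19, -1.40 and -0.97 in ICM, so that the groups did not overlap. In ICM the CDS rose by 2.71 and the 3′ UTR by 0.89, and the ratio fell by 1.82 (SE 0.158). In old the CDS rose by 0.81 while the 3′ UTR changed by -0.03, and the ratio fell by 0.84 (SE 0.17). Its CDS met the threshold through ICM, with a mean of 188.8 reads in the other groups. REEP5, an endoplasmic reticulum-shaping protein, was at -0.97, -0.70 and -0.40 in young, -1.25, -1.11 and -1.02 in old and -1.48, -1.61 and -1.57 in ICM. Its ratio fell by 0.87 in ICM (SE 0.13, adjusted p = 0.000108), where CDS reads rose by 1.00 and footprints by 0.77.

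**Figure D5:**
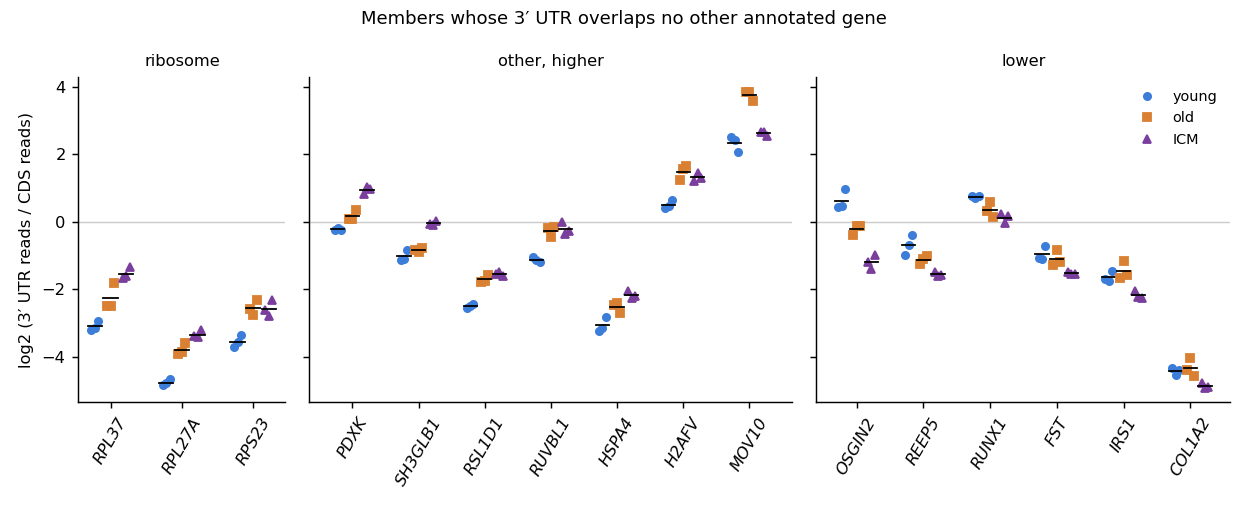
The log2 ratio of 3′ UTR to CDS reads is plotted per mRNA-seq library for 16 members whose 3′ UTR overlaps no other annotated gene, with 3 points and a mean line per group. RPL37 and RPL27A step up from young to old to ICM, MOV10 is highest in old, and OSGIN2 and REEP5 step down.

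The share of members called differed between classes of 3′ UTR length, a difference that was not tested. In ICM against young, 8.56% of the 596 members with the longest 3′ UTRs (3520 to 19695 bases) were called, 36 higher and 15 lower. The share was 3.02% for 3′ UTRs of 53 to 1218 bases, 2.35% for 1220 to 2114 and 4.03% for 2115 to 3513. In old against young the shares, from the shortest to the longest class, were 2.68%, 1.51%, 1.51% and 3.02%. The hexamer AATAAA, searched on the sense strand of the first 300 bases of the 3′ UTR, stood in 14.3% of 2349 members and 17.5% of all tested genes. It stood in 21 of 68 members with a higher ratio in ICM (30.9%), 8 of 34 with a lower one (23.5%), and 15 of 42 with a higher ratio in old (35.7%). These matches are letters in an annotated window and were not tested as sites.

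Among 30 genes known for several poly(A) sites, 24 were members. The ratio rose in 2 and fell in 2 in ICM and rose in 2 in old, with medians of -0.10 and 0.03. EIF2S1, the alpha subunit of translation initiation factor eIF2, rose by 0.58 in ICM (adjusted p = 0.00807) and 0.53 in old (adjusted p = 0.0345). The call in ICM was lost without young replicate 2 or ICM replicate 3 (largest adjusted p = 0.0766), and that in old under 10 of 20 alternatives (largest adjusted p = 0.215).

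RUNX1, a transcription factor, read 0.78, 0.70 and 0.77 in young, 0.31, 0.58 and 0.14 in old, and 0.24, -0.04 and 0.18 in ICM. Its ratio fell by 0.61 in ICM (adjusted p = 0.0135, or 0.101 without ICM replicate 2) and changed by -0.40 in old (adjusted p = 0.229). Other members of that list, such as CCND1, HMGA2, VEGFA, TIMP2 and CDC42, changed by -0.02, -0.11, -0.13, -0.16 and -0.06 in ICM and did not pass. HMGA2, an architectural chromatin protein, moved in level without a called change of the ratio, as its 3′ UTR and CDS reads fell by 2.81 and 2.69 in ICM and rose by 1.38 and 1.09 in old.

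Most genes of the fibroblast matrix moved in level without a called change of the ratio. Of 23 collagen and matrix members, COL1A2 alone was called in ICM against young and none in old against young, with medians of -0.14 and 0.05. COL1A2 read -4.34, -4.54 and -4.38 in young, -4.38, -4.03 and -4.57 in old and -4.77, -4.91 and -4.90 in ICM, a fall of 0.44 against young (adjusted p = 0.0431) and 0.54 against old (adjusted p = 0.0214). The calls were lost under 13 and 7 of 20 alternatives (largest adjusted p of 0.169 and 0.119). COL1A1 fell by 0.60 in ICM against old (adjusted p = 0.00638) and changed by -0.14 against young (adjusted p = 0.694), while its 3′ UTR and CDS reads fell by 2.38 and 2.24 in ICM against young. BGN, the proteoglycan biglycan, fell by 4.42 and 4.27 in the same columns, with a ratio change of -0.14 (adjusted p = 0.87).

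Of 17 members that encode secreted factors of senescent cells, HGF fell by 0.48 in ICM (adjusted p = 0.0493, lost under 14 of 20 alternatives) and IGFBP7 fell in old. IGFBP3 and SERPINE2, which were not called in the ratio, rose in old by 2.84 and 3.29 in 3′ UTR reads and by 2.87 and 3.28 in CDS reads. In the actin cytoskeleton list, 1 of 26 members rose in ICM, TAGLN by 0.79 (adjusted p = 9.51e-05), while its 3′ UTR lies over PCSK7, whose mRNA fell by 0.86. By edgeR, 0 members were called in the comparisons with young among 3 cleavage and polyadenylation factors, 13 proteins that bind 3′ UTRs, 11 mRNAs with AU-rich elements, 9 p53 targets, 12 chromatin factors, 1 histone and 1 cell cycle gene.

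The levels of genes that make and read 3′ ends were judged by summed mRNA reads. Of 27 cleavage and polyadenylation factors, 2 rose and 19 fell in ICM, with a median change of -0.41, and 22 fell and 0 rose in old, with a median of -0.48. Of all 12853 genes, 71.5% changed in ICM against young and 66.6% in old against young, with medians of -0.01, so that a high share of called genes is not particular to these lists. From old to ICM, where 63.6% of genes changed, 9 of the factors rose and 4 fell. CSTF2, which binds the GU-rich sequence after the cleavage site, was at 24.0 CPM ± 1.20 in young, 16.8 ± 0.912 in old and 12.3 ± 0.918 in ICM, falls of 0.50 in old (adjusted p = 5.3e-05) and 0.95 in ICM (adjusted p = 8.2e-09). NUDT21, a subunit of cleavage factor I, was at 95.8 ± 6.68, 55.3 ± 4.85 and 63.0 ± 2.54 CPM, and its own ratio changed by -0.03 in both comparisons. PABPC1, which coats poly(A) tails, fell by 0.92 in ICM and 0.44 in old.

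Of 28 proteins that bind 3′ UTRs, 18 fell in ICM and 18 in old, while 2 rose in ICM and 3 in old. The shares called in either direction were near those of all genes. The median changes of the list were -0.36 and -0.31, beside -0.01 over all genes in both comparisons. HNRNPD, which binds AU-rich elements, fell by 1.92 in ICM and 1.51 in old. IGF2BP1, which binds and stabilises mRNAs, fell by 1.41 and 0.30, and IGF2BP3 fell by 0.61 in ICM and rose by 0.38 in old. MBNL2, which takes part in splicing and poly(A) site choice, rose by 0.51 and 0.45. Whether these levels bear on any ratio was not tested.

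ICM against old gave further values for genes already described. RTRAF rose by 3.13, IGFBP7 by 1.46, AGBL5 by 1.18 and SH3GLB1 by 0.79, and TAF10 fell by 1.85, PCSK7 by 1.59 and MYLK by 1.32. ABI2, an actin regulator without an overlapping gene, was at 1.06, 1.14 and 1.39 in young, 1.80, 1.95 and 1.96 in old, and 1.00, 0.78 and 0.78 in ICM. It rose by 0.71 in old (adjusted p = 0.00194) and fell by 1.05 from old to ICM (adjusted p = 1.48e-05). AKR1C1, a reductase with near-identical relatives, passed the read threshold through ICM libraries, with 2366 to 3050 reads in the 3′ UTR there and 2.5 to 15.5 elsewhere.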

How the data were processed

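Poly(A)-selected mRNA and ribosome footprints of young, old and ICM IMR90 cells were counted by the authors. The deposited tables hold estimated counts per gene symbol in separate columns for 5′ UTR, CDS and 3′ UTR, not scaled to depth. The submitters' processing notes name STAR 2.6.0c, featureCounts, DESeq2, deepTools and GRCh37, with no role given. The annotation release, the use of strand and the placing of reads with several matches are not given in the sources used here. Such choices can move reads between overlapping genes and copies.

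Estimated counts were rounded to whole numbers. The ratio was tested by quasi-likelihood (glmQLFit, glmQLFTest) in edgeR 4.0.16 under R 4.3.3 (design library + region + region:condition, all 9 mRNA-seq libraries, 1 library size for both columns), over 9402 genes with a mean of at least 10 reads in each column, with Benjamini-Hochberg adjustment. Single columns, footprints (4643 genes) and summed mRNA reads (12853 genes) were fitted with TMM scaling. CPM values of single genes were scaled by TMM factors too, unlike the marker sums. Fold changes are on the log2 scale with standard errors (SE). One value per library was compared by exact permutation. In simulated counts with 200 members changed by a factor of 2 in ICM against young, over 9402 genes, all were recovered with 9 false calls. These counts were drawn from the kind of model that edgeR fits. Smaller changes were not simulated, although calls of members in ICM against young went down to a log2 change of 0.38. Lengths, overlaps and sequences came from the representative transcript of GENCODE v44lift37, matched by symbol for 2383 of 2387 members. No overlap refers to exons of that release.

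Named genes were called members without overlap between the libraries of the groups compared and with at least 50 reads in both columns there, namely the 8 largest rises and falls for each comparison with young and the 4 largest for ICM against old, plus called members of gene lists. Further members without an overlapping gene were chosen after their values were seen. Members and lists were chosen with earlier results of these data known. Alternatives were other tools (DESeq2 1.42.0, limma 3.58.1), scalings, filters, thresholds, denominators, a replicate block, thinning and leaving out each library. A few genes and sequences that met these rules are not reported here.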

Additional observations from a re-analysis of the deposited data

How the results depend on the processing

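Counts of called members are given for ICM against young, old against young and ICM against old, which were 107, 52 and 55. An adjusted p under 0.01 left 68, 31 and 31, and one under 0.15 gave 166 and 79 in the comparisons with young. A member threshold of 100 mean reads gave 212, 100 and 90, and one of 500 gave 34, 9 and 21, since each changes how many genes are members. Keeping members whose 3′ UTR overlaps no other gene, an alternative added after seeing the data, gave 61, 26 and 26. Leaving out each library in turn gave 69 to 117, 30 to 53 and 28 to 63. Every other alternative stayed within 1.5 times, at 81 to 144, 38 to 65 and 38 to 76. DESeq2 gave 81, 40 and 45, and scaling factors for each column gave 144, 65 and 67. Dropping members that needed a certain group to meet the read threshold, also added after seeing the data, gave 88, 38 and 38.

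Deviations from group means of same-numbered libraries correlated across members with r of -0.247 to 0.387, over 0.1 in 5 of 9 pairs. Differently numbered libraries gave r of -0.499 to 0.381. These values do not settle whether the numbers pair the libraries. With the replicate number as a block, 118, 56 and 57 members were called. Of 72 calls of named genes, 53 held under every alternative and 58 under all but leaving out a library, and none changed direction. RPAIN, RTL8A, HGF, COL1A2 and EIF2S1 were among those lost. The cause was not tested. With 3 libraries a group, the exact test of a single value cannot go below 0.1, and members with fewer than 50 reads in a column of some library (23) carry the largest counting error.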
